A study of Mus musculus with 24 samples.

Results

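A set of 10 genes that mark tissue-resident macrophages and microglia were followed across liver, brain, heart and skeletal muscle of Rap1 knockin and wild-type mice. They are 10 of the 21370 genes that had a symbol on the array, and were chosen by their symbol, with earlier results of these data known and no threshold on their values. Each had a probe, 15 probes in all. On all 24 arrays the chosen probe of 8 markers was well above background, and that of Trem2 and of Cx3cr1 on 23. Their levels were the readout behind the choice and are given here as a description.

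Resident macrophages settle in organs, many of them before birth, and take up debris, pathogens and dying cells. In liver they are the Kupffer cells of the sinusoids, in brain the microglia of the parenchyma and macrophages at its borders, and in heart and skeletal muscle interstitial cells between the fibres. Their survival depends on signalling through the receptor encoded by Csf1r, and they share a set of transcripts for phagocytosis and complement, while others, such as Cx3cr1 in microglia, are unequal between tissues. In whole tissue, fewer cells of a type and less RNA per cell cannot be told apart.

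Rap1, a shelterin subunit encoded by Terf2ip, was mutated to I312R by CRISPR in the knockin line (KI, labelled RAP1 MUT), and the allele was back-crossed to C57BL6 per the labels, C57BL/6N in the methods of the study. The study reports, from immunoprecipitation in embryonic fibroblasts, that the mutant protein does not bind TRF2. In such fibroblasts it also reports no RAP1 detected at telomeres, less RAP1 protein and more of it in the cytosol. For brain it likewise reports less RAP1 and a larger cytosolic share. Total RNA came from 3 KI females (mice A, B and C) and 3 wild-type females (WT, labelled RAP1 WT; mice D, E and F). Mice C and F were 14 months old and the others 15 months, and every mouse gave all 4 tissues, so 24 arrays formed 8 groups of 3. The study writes its KI mice as Rap1 KI/KI, which denotes homozygotes, whereas the labels give the genotype only as RAP1 MUT, and the array probes do not read the base change, so they do not check the genotype labels.

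Levels are log2 signal minus the 75th percentile of the array, so a difference of 1 is a doubling, and levels are compared between arrays and never between probes. The 75th percentile lay at a signal of 312.4 to 2510.4, and 49.4% to 68.4% of probes per array were well above background. Some libraries carried transcripts of another tissue. The mean level of 8 hepatocyte genes in brain was 4.53 in KI mouse C and -3.30 to -1.23 in the other 5 mice. The mean of 8 skeletal muscle genes in liver was 0.55 in KI mouse C and -6.25 to -5.34 in the others, and the mean of 8 mammary genes in muscle was -1.49 in KI mouse B and -4.90 to -4.67 in the others. Their part in the results was not tested, and values without these mice are given where they matter.

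The labelled tissues were set against defining markers. Clec4f, a Kupffer cell lectin receptor, had levels of 3.45 to 4.28 in liver and was well above background on 6 of 6 liver arrays, but on only 1 of 6 brain arrays and on no muscle array. P2ry12, a purine receptor of microglia, had a median of 0.82 in brain (0.71 to 0.89) and of -3.31 in liver (-3.52 to -2.65), and was well above background on no muscle array.

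Promoter sequence is shown for Aif1 and Cx3cr1, which were among the 3 markers of smallest unadjusted p in liver, and for the complement neighbours C1qb and C1qc. C1qa, C1qb and C1qc, the subunits of the complement component C1q, lie side by side on mouse chromosome 4. The sequences are the 250 bases before each start, 5′ to 3′ on the strand of the gene, from RefSeq on GRCm38.p6. Of the 10 markers, 6 entered the search, and Adgre1, Csf1r, Tyrobp and C1qa did not. The pick left out entries on a chromosome not shown here, so an absent marker need not lack an entry. Capitals mark GAGGAA or its reverse complement TTCCTC, the core that the myeloid factor PU.1 (encoded by Spi1) is known to bind, searched on both strands with no overlap with another motif.
C1qb, chr4:136886201-136886450, minus strand: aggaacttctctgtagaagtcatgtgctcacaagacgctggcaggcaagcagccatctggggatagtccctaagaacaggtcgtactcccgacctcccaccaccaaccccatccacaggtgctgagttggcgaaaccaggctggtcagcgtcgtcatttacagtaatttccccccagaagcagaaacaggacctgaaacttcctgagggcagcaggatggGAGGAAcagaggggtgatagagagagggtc
C1qc, chr4:136892915-136893164, minus strand: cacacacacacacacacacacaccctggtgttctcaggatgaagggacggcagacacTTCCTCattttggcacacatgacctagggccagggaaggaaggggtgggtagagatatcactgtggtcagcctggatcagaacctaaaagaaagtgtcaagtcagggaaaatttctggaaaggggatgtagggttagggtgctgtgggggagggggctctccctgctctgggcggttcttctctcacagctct
Aif1, chr17:35176053-35176302, minus strand: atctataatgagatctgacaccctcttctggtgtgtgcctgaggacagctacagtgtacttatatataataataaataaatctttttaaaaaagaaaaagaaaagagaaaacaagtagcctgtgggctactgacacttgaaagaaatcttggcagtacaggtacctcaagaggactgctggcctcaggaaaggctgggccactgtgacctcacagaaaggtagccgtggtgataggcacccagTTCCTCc
Cx3cr1, chr9:120068297-120068546, minus strand: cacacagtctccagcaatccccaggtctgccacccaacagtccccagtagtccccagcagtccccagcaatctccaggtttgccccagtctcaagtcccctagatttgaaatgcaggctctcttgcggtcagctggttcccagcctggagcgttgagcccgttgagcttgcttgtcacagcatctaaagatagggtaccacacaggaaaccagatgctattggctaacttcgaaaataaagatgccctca
The motif begins 30 bases before the start in C1qb, 193 bases before it in C1qc and 7 bases before it in Aif1, and these letters are not in the Cx3cr1 window. Of the 6 marker promoters 5 held it, against 23.3% of 32851 promoters of the same length (7639). A match is a run of letters and not a measured binding site. The probe for Spi1 itself was well above background on 2 of 6 arrays in liver, brain and heart, and on none in muscle.

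Across tissues, 8 of the 10 markers had their highest mean level in liver and Cx3cr1 and Trem2 theirs in brain, and all 10 were lowest in muscle. Muscle stayed lowest for all 10 under each scaling tried, whereas the number highest in liver was 5 with quantile normalization and 6 on either z-score scale, where the rest moved to brain. These means pool KI and WT arrays. Over WT arrays alone, liver lay below brain for Csf1r (-0.13) and C1qa (-0.059). It lay above brain by only 0.074 for Tyrobp and 0.017 for C1qb. RNA of liver and brain was extracted with a different kit from that of heart and muscle, so kit and this split of tissues cannot be told apart. Tissue differences were common among all genes: the 6 arrays of each tissue did not overlap for 72.9% of genes between liver and brain, 64.8% between liver and heart, 65.3% between liver and muscle, 69.3% between brain and heart, 67.8% between brain and muscle and 46.5% between heart and muscle. Among the 10 markers the corresponding counts were 6, 1, 8, 4, 8 and 10.

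**Figure D1:**
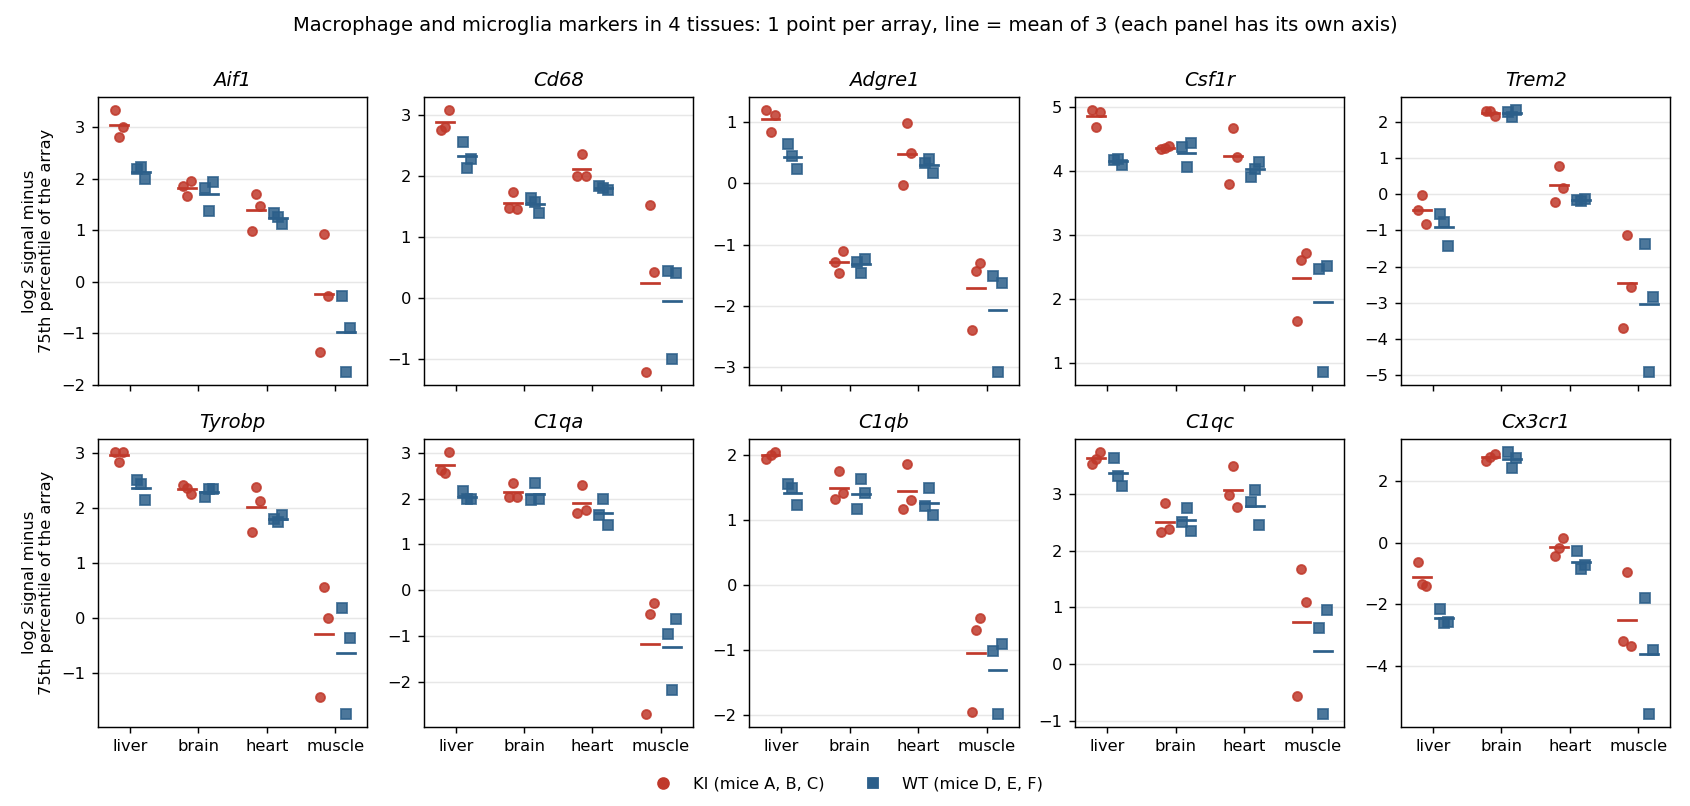
Level of each marker (log2 signal minus the 75th percentile of the array, a separate axis for each gene) on 24 arrays, with 1 point per array, red circles for KI, blue squares for WT, and lines for the mean of 3. Cx3cr1 and Trem2 are highest in brain, all 10 are lowest in muscle, and in liver the KI points lie above the WT points for 8 markers.

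Cx3cr1, the receptor for fractalkine, differed by 4.51 (log2) between brain and liver. Its mean over 6 arrays was 2.73 ± 0.19 (SD, n = 6) in brain, followed by -0.38 ± 0.37 for heart, -1.78 ± 0.79 for liver and -3.04 ± 1.58 for muscle, where it was well above background on 5 of 6 arrays. Brain did not overlap with heart, while heart and liver, and liver and muscle, overlapped. Trem2, a lipid-sensing receptor of microglia and other macrophages, followed the same order, with 2.24 ± 0.08 (SD, n = 6) in brain, 0.04 ± 0.39 for heart, -0.67 ± 0.47 for liver and -2.75 ± 1.42 for muscle. Tyrobp, the adaptor through which TREM2 signals, did not share this order, with 2.66 ± 0.35 (SD, n = 6) in liver, 2.32 ± 0.08 for brain, 1.92 ± 0.29 for heart and -0.46 ± 0.92 for muscle. Brain was thus 7.54-fold above liver for Trem2, but lay 0.34 below liver (log2) for Tyrobp, with overlapping arrays.

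Adgre1, which encodes the macrophage surface protein F4/80, went the other way from Cx3cr1 between brain and liver. Its level was 0.74 ± 0.38 (SD, n = 6) in liver, 0.39 ± 0.34 in heart, -1.30 ± 0.14 in brain and -1.88 ± 0.70 in muscle. The liver mean was 4.12-fold the brain mean, heart and brain did not overlap, and brain and muscle did. Its second probe gave the same order, with means of 0.04 in liver, -0.66 in heart, -2.11 in brain and -3.03 in muscle.

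Cd68, a lysosomal membrane glycoprotein, had means of 2.61 ± 0.35 (SD, n = 6) in liver, 1.97 ± 0.22 in heart, 1.55 ± 0.13 in brain and 0.11 ± 1.03 in muscle. Heart and brain did not overlap, whereas liver and heart, and brain and muscle, did. Aif1, the actin-binding protein also known as IBA1, had means of 2.60 ± 0.53 (SD, n = 6) in liver, 1.77 ± 0.22 for brain, 1.31 ± 0.26 for heart and -0.61 ± 0.95 for muscle, and liver did not overlap with brain. For Cd68, unlike Aif1, the mean was higher in heart than in brain.

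Csf1r, the receptor for CSF1 and IL-34, was nearly even over 3 tissues, with means of 4.50 ± 0.40 (SD, n = 6) in liver, 4.33 ± 0.14 for brain and 4.13 ± 0.31 for heart, each overlapping its neighbour, and 2.15 ± 0.73 in muscle, clear of heart. Its probes disagreed on the first place: liver lay above brain by the chosen probe and by the second probe (0.32 and -0.78), and below it by the third (-0.86 and -0.52). The order of liver and brain for Csf1r also turned with quantile normalization, on both z-score scales, and over WT arrays alone. Among the ligands, Il34 had its highest level in brain, 2.29 ± 0.11 (SD, n = 6), and Csf1 in heart, 2.55 ± 0.07 (SD, n = 6).

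The C1q subunits were close to each other in their tissue profile. C1qa had means of 2.39 ± 0.41 (SD, n = 6) in liver, 2.12 ± 0.18 for brain, 1.79 ± 0.31 for heart and -1.20 ± 0.98 for muscle. C1qb had 1.71 ± 0.33 for liver, 1.45 ± 0.21 for brain, 1.36 ± 0.29 for heart and -1.17 ± 0.64 for muscle, and C1qc had 3.50 ± 0.23 in liver, 2.94 ± 0.35 in heart, 2.53 ± 0.22 in brain and 0.49 ± 1.00 in muscle (SD, n = 6 each). For all 3 genes the neighbours among liver, brain and heart overlapped, and muscle did not overlap with the tissue next above it. The array holds 10 spots of the C1qc probe, whose log2 signals varied on an array with an SD of 0.02 to 0.07, so spot noise was small beside the spread between mice.

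Likeness of profile was measured as the root mean square difference over the 24 arrays after each gene was centred on its own mean, among 16747 genes with a probe well above background throughout the 6 arrays of some tissue. The points share tissue, so closeness mostly means a like tissue order. Tyrobp and C1qb differed by 0.28, and C1qb was the closest of all genes to Tyrobp, to C1qa and to Csf1r. Aif1 was closest to Tyrobp at 0.33, and Cx3cr1 to Trem2 at 0.70. In contrast Adgre1 and Cx3cr1 differed by 2.54.

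**Figure D2:**
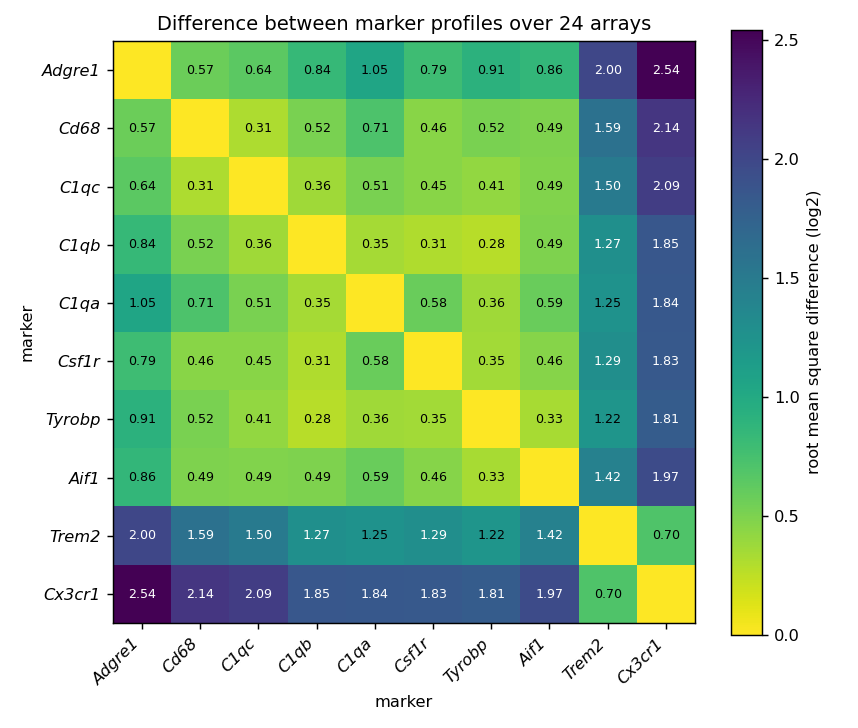
Root mean square difference (log2, colour and printed value) between the centred profiles of each pair of markers over 24 arrays. The 7 markers from Cd68 to Aif1 differ from each other by at most 0.71. Adgre1 differs from them by 0.57 (Cd68) to 1.05 (C1qa), and Trem2 and Cx3cr1 are close only to each other.

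Outside the 10, the nearest profile belonged to Fcer1g, the signalling chain of Fc receptors, for both Cd68 (0.23) and C1qc (0.22), and to Pld4, an endolysosomal nuclease, for C1qb (0.27) and Csf1r (0.33). Glb1, lysosomal beta-galactosidase, was the nearest to Tyrobp (0.34) and Cd300c2 to Aif1 (0.38). Fcgr3, an Fc receptor, lay nearest to C1qa at 0.44, Tbxas1, thromboxane synthase, to Adgre1 at 0.38, and Cd83, an immunoglobulin family surface protein, to Trem2 at 0.52. For Cx3cr1 it was the amino acid transporter gene Slc38a1 at 0.74. The second places went to Tnfaip8l2 for Cd68 (0.28), Pld4 for C1qc (0.31), Srd5a3 for Csf1r (0.34), Hdc for Tyrobp (0.35), Glb1 for C1qb (0.38) and C1qa (0.47), Igsf6 for Adgre1 (0.39), Ccdc159 for Aif1 (0.41), Gpr135 for Trem2 (0.65) and Gabra3 for Cx3cr1 (0.76).

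In liver, all 10 markers were on average higher in KI than in WT mice, by 0.27 to 1.32 on the log2 scale with a median of 0.60, against a median of 0.05 over the 14073 genes tested, of which 57.0% were higher in KI. None passed the threshold of 0.05 after Benjamini-Hochberg adjustment in limma, as 0.0% of all genes did, and the adjusted p of the markers lay between 0.338 and 0.509. At an unadjusted p under 0.05, 8 of 10 markers were higher, against 7.92% of all genes (1667 genes in either direction), and for 8 markers all 3 KI livers lay above all 3 WT livers, against 12.9% of all genes. These shares describe markers picked with results in view and are not independent support.

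Csf1r had levels of 4.95, 4.69 and 4.92 in KI livers A, B and C and of 4.18, 4.18 and 4.10 in WT livers D, E and F. Every KI value was above every WT value by at least the spread within WT, and the means were 4.85 ± 0.14 and 4.15 ± 0.05 (SD, n = 3). The log2 difference was 0.70 (SE 0.12, limma adjusted p = 0.338), a fold of 1.62. The other 2 probes of Csf1r differed by 0.42 and 0.57 in the same direction.

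Aif1 had levels of 3.33, 2.82 and 3.01 in KI mice A, B and C and of 2.19, 2.23 and 2.0 in WT mice D, E and F. The groups did not overlap, with means of 3.05 ± 0.26 and 2.14 ± 0.12 (SD, n = 3). The log2 difference was 0.91 (SE 0.16, limma adjusted p = 0.338), a fold of 1.89.

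Cx3cr1, which was low in liver relative to brain, had levels of -0.62, -1.34 and -1.40 in KI mice A, B and C and of -2.16, -2.60 and -2.56 in WT mice D, E and F. KI mouse A stood highest, and all KI values were above all WT values. The log2 difference was 1.32 (SE 0.25, limma adjusted p = 0.338), a fold of 2.5 with a 95% interval of 1.66 to 3.75. The other 2 probes gave 1.19 and 0.97. It was also the only marker that passed under any alternative: with median centring, where all 10 markers received the same SE of 0.37, the difference was 1.41 with an adjusted p of 0.030.

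Of the remaining markers in liver, C1qa (0.69), Adgre1 (0.61), Tyrobp (0.59), C1qb (0.57) and Cd68 (0.56) also had KI mice wholly above WT mice. C1qc differed by 0.27 and overlapped, since WT mouse D at 3.64 lay within the KI range of 3.54 to 3.75. Trem2 differed by 0.48 and overlapped, with -0.43, -0.03 and -0.84 in KI mice and with -0.55, -0.76 and -1.43 in WT mice. WT mouse F was the lowest of 6 for 7 markers and WT mouse E for the other 3. The second probe of Adgre1 differed by 0.29.

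Leaving out any 1 mouse kept all 10 markers higher in KI livers, with medians of 0.52 to 0.69 and 8 or 9 markers at an unadjusted p under 0.05, where 1012 to 2112 of all genes had one. Without KI mouse C, whose liver carried muscle transcripts, the median was 0.57. When the spread was estimated over all 24 arrays instead of the 6 liver arrays, 1 marker in place of 8 had an unadjusted p under 0.05, against 1291 of 14003 genes. All liver arrays shared 1 slide. Their 75th percentile lay at 621.6 to 746.2 in KI and at 545.6 to 1338 in WT mice, so WT mouse E was near the KI arrays in brightness, and WT mice D and F were above them.

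**Figure D3:**
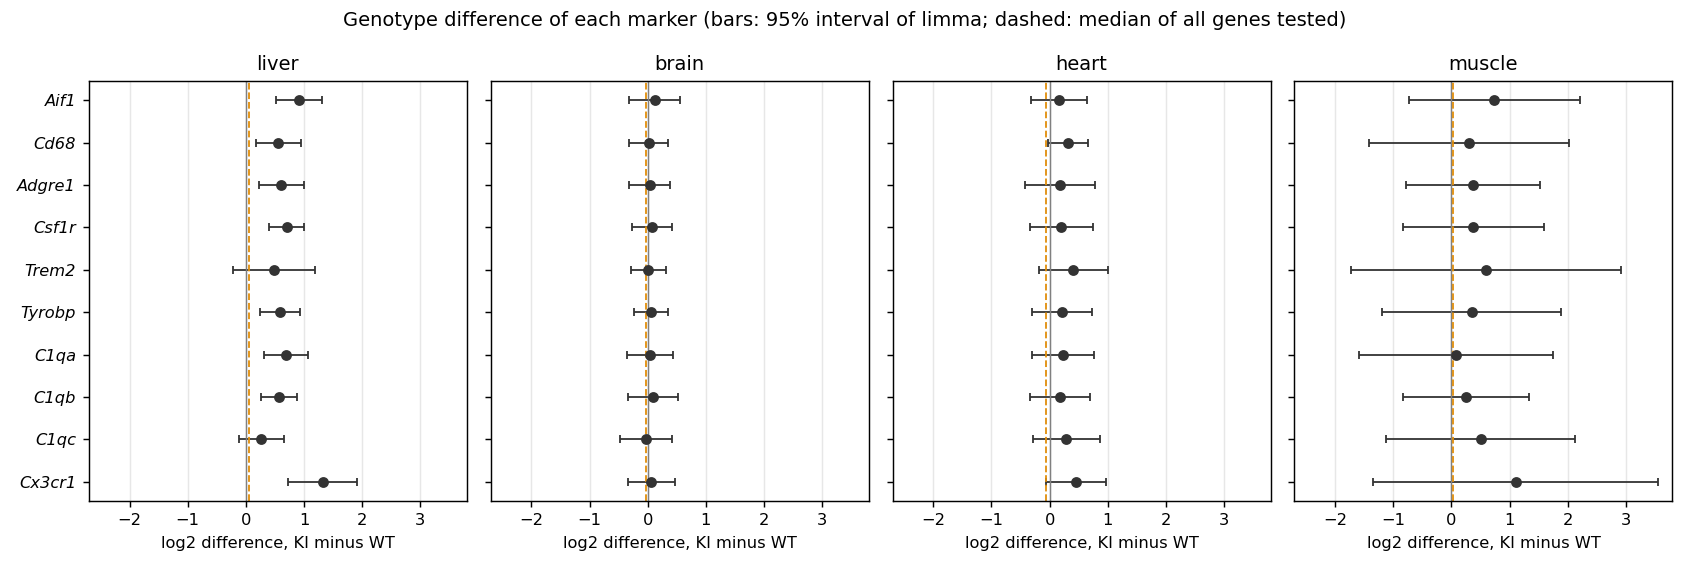
Difference KI minus WT of each marker (log2) in 4 tissues, points with 95% intervals from limma on 3 against 3 arrays, and a dashed line at the median of all genes tested in the tissue. Intervals lie above 0 for 8 markers in liver, sit close around 0 in brain, and are widest in muscle.

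In brain no difference between genotypes exceeded the spread between mice for any marker. The differences ran from -0.03 (C1qc) to 0.12 (Aif1), with 9 of 10 positive and a median of 0.04, against -0.03 over the 16045 genes tested (39.5% positive). Called genes were 0 of 10 by adjusted p (0.0% of all genes) and 0 of 10 at an unadjusted p under 0.05 and higher in KI, against 0.386% of all genes (126 in either direction). None had all KI above all WT mice, against 1.22% of all genes. The 95% interval of the difference reached at most 0.56 in either direction for any marker, which still leaves room for a fold of 1.48.

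Aif1 in brain had levels of 1.85, 1.66 and 1.96 in KI mice A, B and C and of 1.82, 1.37 and 1.93 in WT mice D, E and F. The groups overlapped, and WT mouse E was the lowest. The log2 difference was 0.12 (SE 0.19, 95% interval -0.32 to 0.56, limma adjusted p = 1.00). Csf1r had levels of 4.34, 4.36 and 4.39 in KI and of 4.37, 4.06 and 4.44 in WT mice, and its difference of 0.08 (SE 0.14) likewise rested on mouse E: without E the differences were -0.05 for Aif1 and -0.04 for Csf1r.

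The C1q genes in brain were highest in 1 mouse of each genotype. C1qb had levels of 1.33, 1.75 and 1.42 in KI mice A, B and C and of 1.18, 1.63 and 1.42 in WT mice D, E and F (difference 0.09, SE 0.18, limma adjusted p = 1.00). C1qc reached 2.84 in KI mouse B and 2.76 in WT mouse E, against 2.33 to 2.52 in the other 4, and C1qa reached 2.34 in B and 2.35 in E, against 1.97 to 2.04. The same mouse E that was highest or second for these 3 genes was the lowest for Aif1, Csf1r, Cx3cr1 and Trem2. This pattern was picked after the values were seen.

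The brain arrays were split over 2 slides, each with both genotypes. The median marker difference was 0.01 between the pair on slide 1 (mice A and D) and 0.06 between the 2 KI and 2 WT mice on slide 2. The brain of KI mouse C, with its liver transcripts, also had the highest mean of 12 Kupffer cell genes, -1.72 against -4.08 to -3.70 in the other mice, and of 12 complement genes, 0.81 against -0.50 to -0.33. Without mouse C the median marker difference was 0.06.

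In heart all 10 markers were higher on average in KI mice, by 0.16 to 0.46 with a median of 0.22, against -0.05 over the 14907 genes tested (38.1% higher). None passed by adjusted p (0.0% of all genes), and none had an unadjusted p under 0.05, against 0.899% of all genes higher in KI (244 in either direction). Cd68 alone had all KI above all WT hearts (1 of 10, against 1.79% of all genes). Cd68 had levels of 2.0, 2.36 and 2.0 in KI mice A, B and C and of 1.84, 1.81 and 1.78 in WT mice D, E and F, a log2 difference of 0.31 (SE 0.15, limma adjusted p = 0.970).

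Cx3cr1 in heart had levels of -0.43, -0.18 and 0.15 in KI and of -0.26, -0.85 and -0.73 in WT mice (difference 0.46, SE 0.22, limma adjusted p = 0.970). Trem2 had levels of -0.22, 0.78 and 0.15 in KI and of -0.15, -0.20 and -0.14 in WT mice (difference 0.40, SE 0.25, limma adjusted p = 0.970). KI mouse A fell among or below the WT mice for both, while KI mouse B or C was highest.

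Much of the heart difference rested on KI mouse B. It was the highest of 6 hearts for 9 of 10 markers, and KI mouse A the lowest for 5. Without B the median fell from 0.22 to 0.04 with 6 of 10 markers higher, and without A it was 0.39 with 3 of 10 markers at an unadjusted p under 0.05, against 538 of 14912 genes in that fit. Slide and age coincide in heart. The median was 0.23 within slide 2 (A and B against D and E) and 0.30 within slide 3 (C against F), with all 10 markers higher in each. The heart of KI mouse B also had the highest mean for most lists computed. Among these were 6 adipocyte genes (1.26 against -1.19 to -0.08), 8 B cell genes (-1.82 against -3.77 to -2.84) and 14 pan-myeloid genes (1.27 against 0.65 to 0.87). So were 7 cardiomyocyte genes (8.45 against 6.61 to 7.98), 8 neuron genes (-2.18 against -3.14 to -2.86) and 8 hepatocyte genes (-2.18 against -3.59 to -3.13). Exceptions were the endothelial, oligodendrocyte, mammary and CX3CR1 lists. The part of these in the result was not tested.

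In skeletal muscle the spread between mice exceeded the difference between genotypes. The markers were higher in KI mice by 0.08 to 1.10 with a median of 0.37, against 0.02 over the 13498 genes tested (54.5% higher), but the SE ran from 0.46 to 1.03. None passed by adjusted p (0.0% of all genes), none had an unadjusted p under 0.05, against 0.407% of all genes higher in KI (117 in either direction), and none had all KI above all WT mice, against 2.23% of all genes. The spread of the markers within genotypes was above that of 92.0% (C1qb) to 99.5% (Cx3cr1) of the genes tested in muscle.

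Aif1 in muscle had levels of -1.37, 0.92 and -0.28 in KI mice A, B and C and of -0.28, -1.75 and -0.91 in WT mice D, E and F (difference 0.74, SE 0.62, limma adjusted p = 1.00). Cx3cr1 had levels of -3.20, -0.94 and -3.33 in KI and of -1.78, -5.53 and -3.46 in WT mice (difference 1.10, SE 1.03, limma adjusted p = 1.00), and mouse E was the 1 array on which it was not well above background. Adgre1 had levels of -2.38, -1.42 and -1.29 in KI and of -1.51, -3.07 and -1.63 in WT mice (difference 0.37, SE 0.49, limma adjusted p = 1.00), and its second probe differed by -0.19. In each case mouse E was the lowest, and KI mouse B or C the highest.

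The markers varied together between muscles. WT mouse E was the lowest for 8 markers and KI mouse A for the other 2, while KI mouse B was the highest for 6 and KI mouse C for 4. The mean of the 10 markers, each centred on its mean over the 24 arrays, was -2.81, -0.87 and -1.52 in KI mice A, B and C and -1.44, -3.34 and -1.81 in WT mice D, E and F, a range of 2.47 against 0.15 in brain. Leaving out E turned the median difference to -0.15 with 2 of 10 markers higher, leaving out B gave 0.05 and leaving out C 0.20, while leaving out A, D or F gave 0.97, 0.68 or 0.62.

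Other lists moved with the same muscles. The mean of 14 pan-myeloid genes was -1.71 in A and -2.16 in E against -0.99 to -0.41 in the other 4 mice, and the mean of 8 endothelial genes was 0.85 and 0.78 against 1.11 to 1.42. The mean of 9 neutrophil genes was 1.72 in KI mouse B and 1.70 in WT mouse D, and -4.28 to -3.69 in the others, so it separated B and D where the markers separated A and E. KI mouse B, with the mammary transcripts, was the highest for the pan-myeloid list. The 75th percentile was 312.4 in A and 441.1 in E, and 404.2 to 589.5 in the other 4. The part of these in the marker levels was not tested.

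**Figure D4:**
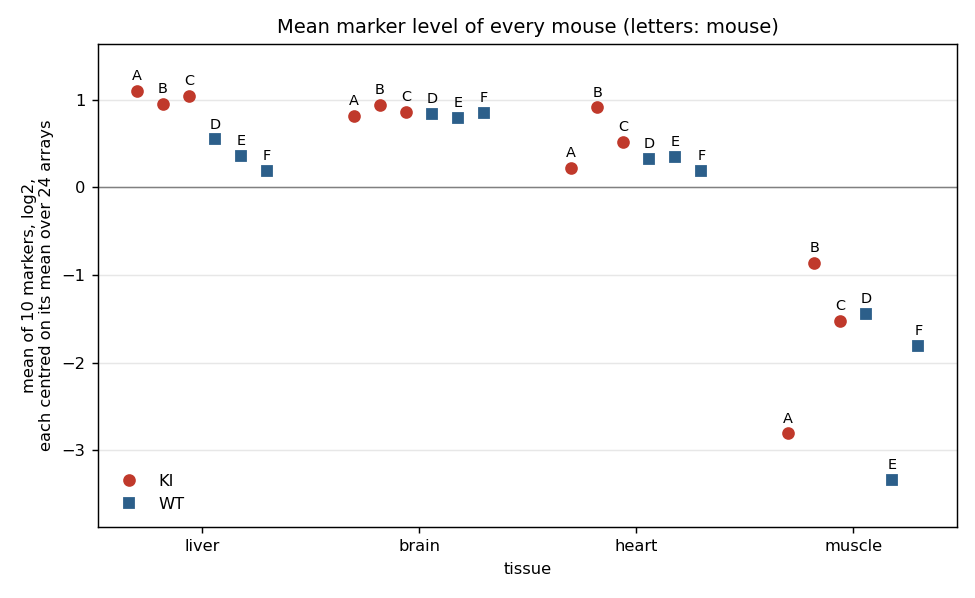
Mean of the 10 markers on each array (log2, each marker centred on its own mean over 24 arrays), red circles for KI and blue squares for WT, with the letter of the mouse. KI livers (0.96 to 1.10) lie above WT livers (0.19 to 0.55), brains lie within 0.79 to 0.94, and muscles A and E lie far below the other muscles.

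When the 4 tissues of each mouse were averaged, all 10 markers were higher in KI mice, with a median of 0.30 against 0.01 over 17174 genes (52.0% higher). None passed by adjusted p (0.0% of all genes). Only Aif1 was higher at an unadjusted p under 0.05, against 2.18% of all genes (596 in either direction), with per-mouse means of 1.20, 1.78 and 1.54 in KI mice and of 1.26, 0.78 and 1.03 in WT mice (difference 0.48, SE 0.19, limma adjusted p = 0.983). No marker had all KI above all WT mice, against 4.54% of all genes. Without KI mouse A the median was 0.50, and without KI mouse B 0.15.

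Whether the genotype difference itself varied between tissues was asked with a moderated F-test over the 24 arrays. None of the 10 markers passed, as 0.0% of the 17174 genes did (329 genes had an unadjusted p under 0.05), and the unadjusted p of the markers ran from 0.42 for Aif1 to 0.92 for Trem2. The test pools the spread of a marker over all tissues, muscle included. In a fit with such pooling the SE of Csf1r in liver was 0.34, against 0.12 on the liver arrays alone. It also covers all tissues at once and is no direct contrast of liver with brain. The larger difference in liver than in brain was therefore not shown to be a difference between tissues, and this test could not settle it.

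The other genes of these pathways were counted in lists, some of which share genes. In liver no gene of any list passed by adjusted p, and over all genes the median was 0.05, 57.0% were higher in KI and 7.92% were higher at an unadjusted p under 0.05. All 12 Kupffer cell genes were higher in KI livers (median 0.53, 6 at an unadjusted p under 0.05), as were 8 of 8 perivascular and interstitial macrophage genes tested (0.54, 3), 13 of 13 activated microglia genes (0.35, 4) and 9 of 9 genes of TREM2 and TYROBP signalling (0.36, 4). The medians were 0.24 for 11 homeostatic microglia genes (2 at an unadjusted p under 0.05), 0.14 for 11 complement genes (none), 0.27 for 5 genes of ligands and factors around CSF1R (1, lower in KI) and 0.21 for 3 genes around CX3CR1 (1, its ligand Cx3cl1 at 0.40).

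By smallest p, Plcg2 and Pf4 were named in liver. Plcg2, the phospholipase downstream of TREM2, had levels of 1.31, 1.28 and 1.26 in KI and of 0.79, 0.46 and 0.31 in WT mice (difference 0.76, SE 0.15, limma adjusted p = 0.338). Pf4, a platelet chemokine that some tissue macrophages also express, had levels of 0.83, 0.56 and 0.56 in KI and of 0.01, 0.02 and 0.04 in WT mice (difference 0.63, SE 0.12, limma adjusted p = 0.338). Neither gene overlapped between genotypes, which follows closely from the pick by smallest p. Among all genes tested in liver, 12.9% had all KI above all WT mice.

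Lists of other cell types stood beside these in liver, to be read against the same 57.0% and 7.92% of all genes. Of 14 pan-myeloid genes 11 were higher (median 0.53, 8 at an unadjusted p under 0.05), and of 8 neutrophil genes tested 7 were higher (0.70, 5). Monocyte genes had a median of 0.00 (3 of 7 higher, 2 of them at an unadjusted p under 0.05). Dendritic cell genes had 0.34 (7 of 7), T and NK cell genes 0.21 (6 of 7), B cell genes 0.81 (4 of 5) and endothelial genes 0.14 (5 of 8). None of the genes in these last lists had an unadjusted p under 0.05. Hepatocyte genes had a median of 0.33 (7 of 8), none at an unadjusted p under 0.05. The mean of the 9 neutrophil genes was -1.31 to -1.15 in KI and -2.10 to -1.54 in WT livers, with 8 or 9 of 9 well above background in KI and 6 to 9 in WT, and its part in the marker difference was not tested.

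**Figure D5:**
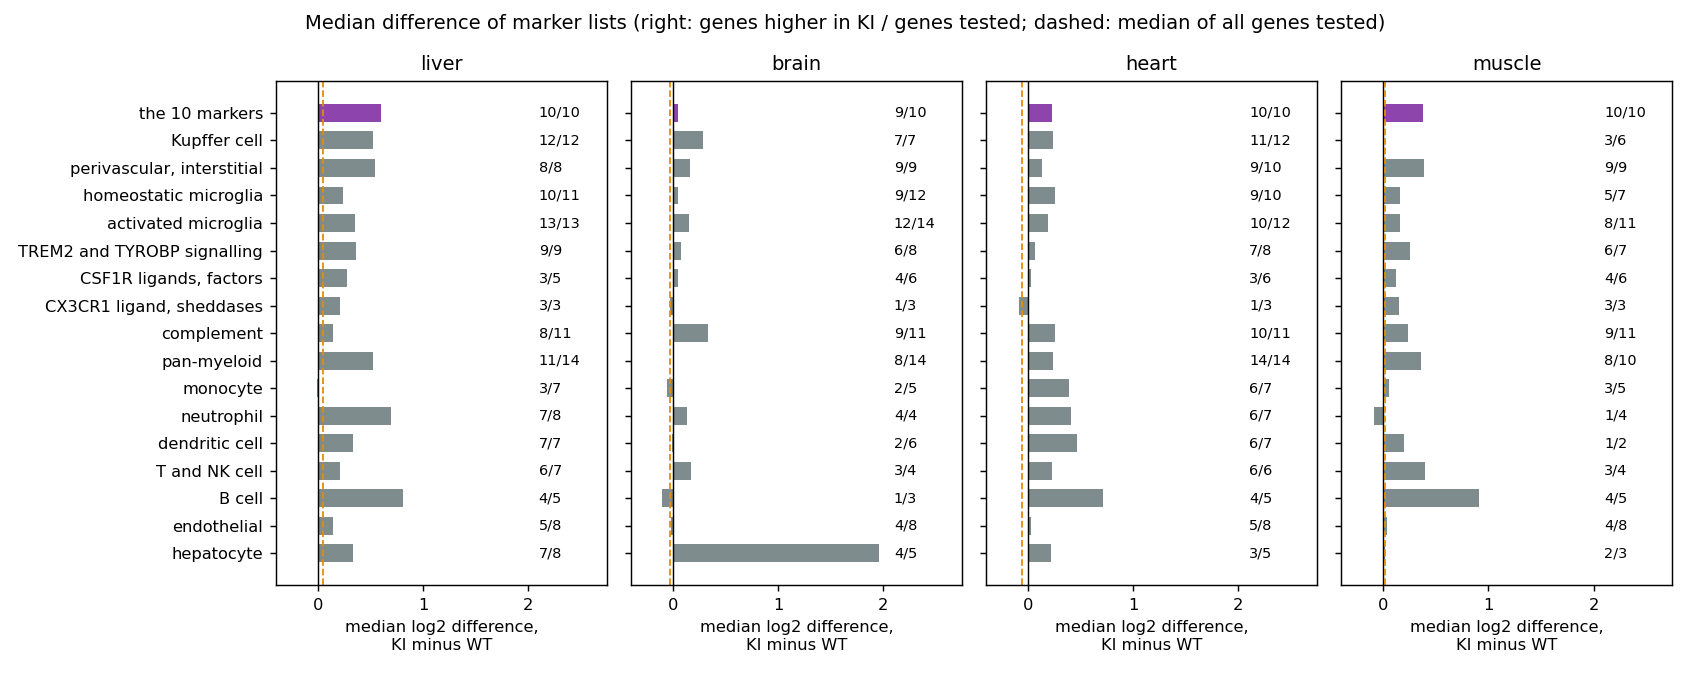
Median difference KI minus WT (log2, bars) of the 10 markers and of 16 lists in 4 tissues, with the number of genes higher in KI over the number tested, and a dashed line at the median of all genes tested. Myeloid lists other than the monocyte list lie to the right of the dashed line in liver, and the long hepatocyte bar in brain goes with the liver transcripts of mouse C.

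In the other tissues no list gene passed either. In brain the smallest p values belonged to Runx1, a blood cell transcription factor (difference 0.78, SE 0.39, limma adjusted p = 1.00), and Slc40a1, the iron exporter (0.29, SE 0.17, limma adjusted p = 1.00). Both were highest in KI mouse C, at -3.60 for Runx1 and 0.01 for Slc40a1. In heart they belonged to Sirpb1a, a receptor that pairs with TYROBP, with levels of -2.71, -1.65 and -2.52 in KI and of -2.83, -3.44 and -3.18 in WT mice (difference 0.86, SE 0.30, limma adjusted p = 0.970), and to Fcrls, a microglial Fc receptor-like gene, with -0.77, -0.57 and -0.75 in KI mice and of -1.17, -0.92 and -1.04 in WT mice (difference 0.35, SE 0.13, limma adjusted p = 0.970).

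In muscle Itgam, a complement receptor chain, differed by -0.41 (SE 0.25, limma adjusted p = 1.00). The probes of Itgam disagreed strongly. The chosen probe had a mean of 6.0 in muscle and the other 2 had -1.74 and -4.30, with differences of 0.43 and 0.21, so the sign for Itgam depended on the probe. The chosen probe also stood for Itgam in the pan-myeloid and complement lists in every tissue. In liver its difference was -0.30, against 0.32 and -0.04 by the other 2.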

How the data were processed

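Total RNA of 24 samples was labelled with Cy3 and hybridised to 1-colour Agilent mouse arrays. Agilent Feature Extraction (version 12.0.3.1 in the headers) gave the deposited intensities. The processed signal was used, an intensity that the authors' run of that program had corrected for background and left unnormalized between arrays. A deposited score table of 33912 features held z-scores of the log signal within each array (largest difference 0.005), used only as an alternative. The study's methods give no array test.

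Of 62976 spots per array, 59305 were not controls. Outlier spots (121 to 347) were left out, spots of a probe were averaged and no spot was saturated. Log2 signal minus the 75th percentile of the array was used. The number of arrays limits the precision. Probes were named through RefSeq accessions (GRCm38.p6 table, 99.0% of 26732 curated mRNA probes matched, the array being designed on mm9). The probe with the highest mean stood for a gene.

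Genes whose probe was well above background in all 3 mice of either genotype were fitted per tissue on 6 arrays with limma 3.58.1 in R 4.3.3 (two-sided), with Benjamini-Hochberg adjustment over all genes tested and a threshold of 0.05. The fits were tested on simulated data. An exact permutation test of 3 against 3 cannot go below 0.10. Samples were grouped by the tissue and genotype in the labels, and no column was without a sample. P-values measure the spread between these mice.

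The markers and lists were chosen with earlier results of these data known. Values per mouse are given for the 3 markers of smallest unadjusted p in each tissue and for Aif1 in brain. From the other lists, genes past the threshold were to be named, and otherwise the 2 of smallest unadjusted p per tissue among the macrophage, CSF1R, TREM2, CX3CR1 and complement lists. Of these, 1 gene is not reported here. For each marker the 2 genes of most similar profile are named. Defining markers (Clec4f, P2ry12, Spi1, Csf1, Il34, Cx3cl1) were named outside this rule. Lists for erythroid cells, neurons, astrocytes, oligodendrocytes, cardiomyocytes and skeletal muscle were also computed, and genes absent from the array's symbols were left out.

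The same 6 mice gave all tissues, so mouse numbers pair arrays across tissues. Deviations from group means over 12218 genes had a mean correlation across genes of 0.019 between arrays of the same mouse and of -0.0084 between different mice. The genotypes share no mouse, so there is no pairing within a tissue. Alternatives covered normalization, background, filter, probes, slide, age, the mouse as a block and leaving out each array.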

Additional observations from a re-analysis of the deposited data

How the results depend on the processing

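No marker passed the threshold in any tissue under any alternative, except 1 in liver with median centring (Cx3cr1, 1.41). Over 441 alternative values, 15 reversed a named difference (all below). Without WT mouse E the median difference turned to -0.0017 in brain and -0.15 in muscle, and the leave-one-out medians ran from 0.037 to 0.39 in heart, -0.15 to 0.97 in muscle and 0.52 to 0.69 in liver. The median liver difference was 0.15 on the z-score scale and 0.14 on the deposited scores, which are in SD units and not log2. Among all genes, calls in liver went from 0 to 79 with median centring and to 2 over 24 arrays, and were at most 1 for the mean of tissues and the difference between tissues. With the mouse as replicate block the liver median stayed at 0.60 and no call of a marker changed.

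Leaving out 1 mouse reversed small differences: Aif1 in brain ran from -0.051 to 0.23, Csf1r in brain from -0.039 to 0.15, C1qb in brain from -0.034 to 0.20 and Adgre1 in muscle from -0.13 to 0.71. The second Adgre1 probe gave -0.19 in muscle (added after the data were seen). Tissue order reversed, as liver minus brain, for Csf1r with quantile normalization (-0.75), z-scores (-0.0088), deposited scores (-0.052) and WT arrays alone (-0.13), for Tyrobp with quantile normalization (-0.072), for C1qa with quantile normalization (-0.10), deposited scores (-0.0033) and WT arrays alone (-0.059), and for C1qb with z-scores (-0.0027). The cause was not tested. In muscle, 8 of the 10 markers were well above background in WT mouse E, and Cx3cr1 and Trem2 were not. The part of signal in the muscle spread was not tested.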
